A study of Homo sapiens with 4 samples.

Results

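The SMC and condensin subunits examined here are 10 genes: SMC1A, SMC2, SMC3, SMC4, NCAPD2, NCAPD3, NCAPG, NCAPG2, NCAPH and NCAPH2. Members were the probe sets to which the platform annotation gives exactly 1 gene symbol, that symbol being one of these names. They numbered 34 of 44988 probe sets with 1 symbol, and the 10 genes were part of 18132 genes so named. RNA came from SCC-9 cells, an established human line from a tongue squamous carcinoma, hybridised to PrimeView expression arrays. In 1 group of 2 arrays the cells carried a miR-585-5p mimic, an RNA duplex that acts as this microRNA, and in the other group of 2 a control RNA, miR-NC, at 30 nM for 36 hours. All 4 samples were otherwise the same line with no other label, so the comparison asks what an excess of miR-585-5p does to the transcripts of 1 line. Nothing in the labels says that the 2 arrays of a group came from separate cultures, and the p-values then cover no more than the spread of these samples, perhaps a technical one.

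SMC proteins are long coiled-coil ATPases that work in pairs and gather loops of DNA. SMC2 and SMC4 form the motor of condensin, which compacts chromosomes for mitosis. Condensin I adds the kleisin NCAPH and the HEAT-repeat subunits NCAPD2 and NCAPG, and reaches chromosomes after the nuclear envelope breaks down. Condensin II adds the kleisin NCAPH2 and the HEAT-repeat subunits NCAPD3 and NCAPG2, and is nuclear through interphase. SMC1A and SMC3 form the core of cohesin, which holds sister chromatids together and shapes loops in interphase.

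The sequence behind the treatment is shown because it is the reagent of the study, with the seed (bases 2 to 8) in capitals. It is the mature RefSeq entry (GRCh38.p14, chr5:169263649-169263670, minus strand), and the strands of the transfected mimic are not given in the sources used here.
miR-585-5p: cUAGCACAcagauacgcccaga

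Promoters are shown because most of these genes moved together. Genes of mitosis often carry a cell cycle homology region, CHR, which the DREAM and MuvB complexes bind, and CCAAT boxes, which NF-Y binds. RefSeq windows (GRCh38.p14) reaching from 250 bases before a start site to 50 after it matched 9 of the members, all but NCAPH2, in 13 windows. Searched on both strands, the CHR letters TTTGAA stood in a window of 7 of these 9 genes: SMC2, SMC3, SMC4, NCAPD2, NCAPD3, NCAPG and NCAPG2. By window the count was 7 of 13 (53.8%). Among all promoters of the table, 15.2% of 35116 windows and 18.2% of 27305 genes held these letters. CCAAT was found for 3 of the 9 genes (NCAPD2, NCAPD3 and NCAPH) against 39.7% of all genes. The E2F letters TTTGGCGC, TTTGCCGC, TTTCGCGC or TTTCCCGC were found for 2 of the 9 (NCAPD3 and SMC1A) against 3.99% of all genes, and the CHR variant TTCGAA for 0 against 1.82%. A match is a description of letters, not of a bound site.

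The stretches below run from 120 bases before the start site to 50 after it, in the direction of the gene, with every searched motif in capitals. NCAPG (chr4:17810859-17811028, plus strand) has the CHR letters at -35 to -30, counted from the start site at 1, with no base 0. In NCAPD3 (chr11:134223918-134224087, minus strand) they lie at -3 to 3, with 2 CCAAT boxes upstream, read as ATTGG on this strand. SMC2 (chr9:104094189-104094358, plus strand) and SMC4 (chr3:160399530-160399699, plus strand) hold them on the opposite strand, read as TTCAAA. In genes not printed, the CHR letters lie at -145 to -140 in NCAPD2 and at -151 to -146 in SMC3. In NCAPG2 they lie after the start site, at 36 to 41. NCAPH (chr2:96335646-96335815, plus strand) holds a CCAAT box and no TTTGAA in its window, and its brightest probe set had the largest rise of the members. SMC1A (chrX:53422605-53422774, minus strand), which did not rise, holds an E2F match alone. A link between these letters and the changes was not tested.
NCAPG: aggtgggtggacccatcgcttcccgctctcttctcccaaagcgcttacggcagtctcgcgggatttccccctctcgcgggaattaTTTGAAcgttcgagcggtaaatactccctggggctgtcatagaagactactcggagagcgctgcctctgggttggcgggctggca
NCAPD3: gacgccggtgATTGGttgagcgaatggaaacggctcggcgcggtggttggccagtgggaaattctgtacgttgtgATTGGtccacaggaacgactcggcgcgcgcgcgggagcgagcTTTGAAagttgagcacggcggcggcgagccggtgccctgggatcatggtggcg
SMC2: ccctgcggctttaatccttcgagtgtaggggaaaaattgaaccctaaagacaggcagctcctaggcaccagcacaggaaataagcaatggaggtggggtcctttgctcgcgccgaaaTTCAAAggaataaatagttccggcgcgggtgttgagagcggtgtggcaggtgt
SMC4: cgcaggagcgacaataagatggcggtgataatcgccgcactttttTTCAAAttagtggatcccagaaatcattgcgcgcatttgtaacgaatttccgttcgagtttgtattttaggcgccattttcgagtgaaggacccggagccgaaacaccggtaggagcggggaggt
NCAPH: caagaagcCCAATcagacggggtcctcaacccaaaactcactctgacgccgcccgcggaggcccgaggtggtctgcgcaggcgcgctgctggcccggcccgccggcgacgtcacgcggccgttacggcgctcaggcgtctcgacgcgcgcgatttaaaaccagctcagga
SMC1A: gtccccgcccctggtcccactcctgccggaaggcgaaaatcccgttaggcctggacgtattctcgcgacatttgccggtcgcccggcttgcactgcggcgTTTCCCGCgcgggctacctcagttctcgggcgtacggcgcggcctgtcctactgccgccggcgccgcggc

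Arrays were alike in overall level, with median intensities of 30.6 to 31.3. The deposited values are RMA intensities on a linear scale, and tests were run on their log2. Correlations across probe sets were 0.997 to 0.998 within groups and 0.978 to 0.982 between groups. Squamous markers fixed for the check were bright: 7 of 7 named by 1 symbol lay above the 20 probe sets with no human target on all 4 arrays, with summed intensities of 23910 and 24680 in the mimic group and 22060 and 22740 in the control group. Single squamous markers moved in either direction, by 0.97 (log2) for KRT14, 0.59 for EPCAM, 0.25 for DSP and 0.24 for KRT5. PERP was at -0.11, SFN at -0.42 and CDH1 at -1.26. Other cell types were represented weakly. Of the fibroblast markers 1 of 5 (PDGFRB) exceeded the no-target probe sets on all 4 arrays, with sums of 71.6 to 75.8 in the mimic group and 73.0 to 75.5 in the control group, and LUM, DCN and COL3A1 on none. Among leukocyte markers CD14 did so, 1 of 4, with sums of 109 to 125 against 81.6 to 86.5, and PTPRC and LYZ on none. Endothelial markers did so for 3 of 4 (PECAM1, VWF and KDR), with sums of 104 to 121 against 142 to 152, and CDH5 on none. The poly(A) spikes, bacterial transcripts put into each sample, were 0.35 higher (log2) in the mimic group over 11 probe sets, 0.10 higher over 11 older probe sets for the same RNAs, and hybridization spikes differed by -0.05. Results after scaling to each of these spikes are given below, and the cause of the differences was not tested.

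Transcripts of 7 of the 8 condensin subunits were higher with the mimic, and so was SMC3 of cohesin. All 10 genes passed the filter on low values, which kept a gene if its mean exceeded the 30th percentile over probe sets (intensity 12.0), and were tested with 14122 genes in all by limma, with Benjamini-Hochberg adjustment over all of them and a threshold of 0.05. Of the 10 genes, 8 rose, 1 fell (SMC1A) and 1 (NCAPH2) was not called. Over all genes tested 28.1% were called higher and 26.9% lower. The filter lay below the highest intensity of the no-target probe sets, 16.8, so shares over all genes tested take in genes near background. The median log2 change was 0.92 for the members and -0.06 for all genes tested. Both mimic arrays lay above both control arrays for 9 of the 10 genes, a pattern seen in 36.5% of all genes tested. In RNA of a whole culture, a changed mix of cells, such as more in mitosis, and more transcript per cell cannot be told apart.

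**Figure D1:**
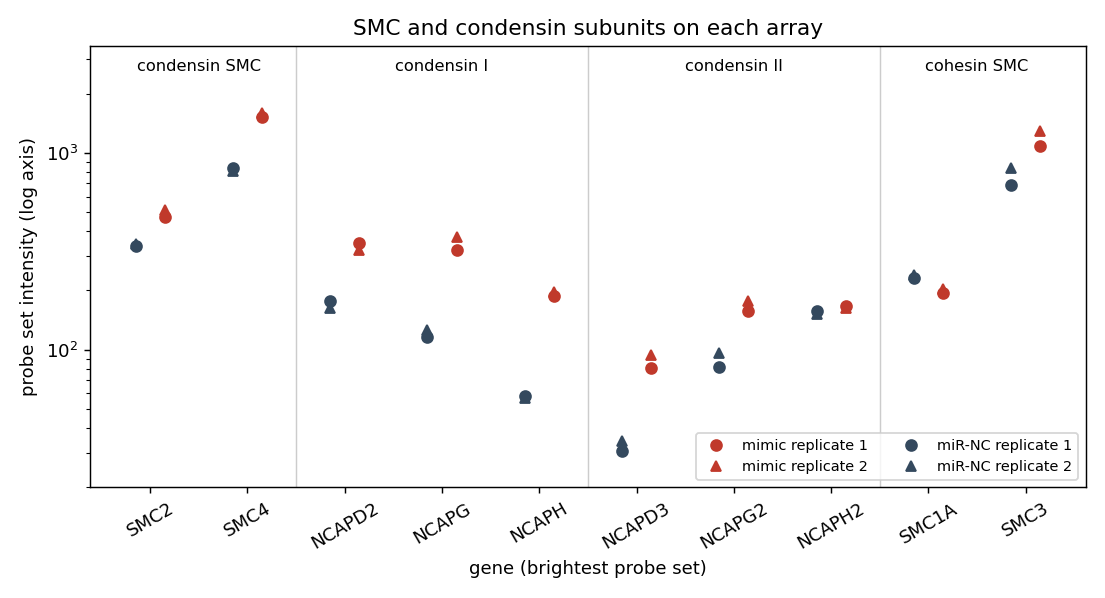
Intensity (log axis) of the brightest probe set of each SMC and condensin gene on each of the 4 arrays, red for the mimic and dark blue for miR-NC, with circles for replicate 1 and triangles for replicate 2. The red points lie above the dark ones for 9 of the 10 genes, narrowly for NCAPH2, and below them for SMC1A.

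The 3 subunits found only in condensin I all rose. NCAPH, the kleisin that closes the ring, read 187 and 196 with the mimic and 58.4 and 57.0 with the control. The groups were far apart, and the log2 change was 1.73 ± 0.09 (SE, n = 2 per group, limma adjusted p = 9.62e-08), a 3.32-fold rise. Only 1.01% of the genes tested had a larger rise. NCAPG, a HEAT-repeat subunit, read 321 and 374 against 116 and 126. It rose by 1.52 ± 0.09 on the log2 scale (limma adjusted p = 2.69e-07), with 1.52% of genes rising more. NCAPD2, the other HEAT-repeat subunit, read 347 and 320.05 against 176 and 162, with no overlap. Its change was smaller, at 0.98 ± 0.08 (limma adjusted p = 2.22e-06), a 1.97-fold rise.

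The condensin II subunits differed among themselves. NCAPD3, a HEAT-repeat subunit and the dimmest member, read 81.1 and 94.0 with the mimic and 30.6 and 34.1 with the control. It rose 2.70-fold, by 1.43 ± 0.12 on the log2 scale (limma adjusted p = 2.87e-06). NCAPG2 read 157 and 176 against 81.8 and 95.8, again without overlap. It rose by 0.91 ± 0.11 (log2, limma adjusted p = 2.94e-05). NCAPH2, the kleisin of condensin II, read 167 and 162 against 158 and 151. Its values nearly met, and its log2 change of 0.09 ± 0.08 was not called (limma adjusted p = 0.352). The gap between the lowest mimic and the highest control array was smaller than the gap within either group.

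Both subunits of the shared condensin motor rose. SMC4 read 1517 and 1598 with the mimic and 836 and 805 with the control. It rose by 0.92 ± 0.05 on the log2 scale (limma adjusted p = 1.86e-07), a 1.90-fold change with no overlap. SMC2 read 471 and 515 against 338 and 346. Its log2 change was 0.53 ± 0.07 (limma adjusted p = 6.81e-05), and it was called on the deposited scale but not after scaling to the poly(A) spikes, where it was at 0.18 (adjusted p = 0.116).

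The cohesin pair moved apart. SMC3, which carries the acetylation sites that lock cohesion, read 1089 and 1295 with the mimic and 685 and 842 with the control. It rose by 0.64 ± 0.10 on the log2 scale (limma adjusted p = 2.42e-04). SMC1A, its partner, read 195 and 203 against 232 and 239. It fell by 0.24 ± 0.07 on the log2 scale (limma adjusted p = 0.0168), the smallest change called among the members. Its call ended without mimic replicate 1 (adjusted p = 0.119) and without mimic replicate 2 (adjusted p = 0.0643).

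The balance of directions over all genes rests on the scaling, since RMA sets every array to 1 distribution. On the deposited scale 51.1% of all calls were higher, with the poly(A) spikes 16.4%, with the older poly(A) probe sets 38.1%, and with the hybridization spikes 58.0%. The poly(A) scaling moved the median of all genes from -0.06 to -0.40 (log2) and that of the members from 0.92 to 0.57. It shifts every gene by the same amount, so by construction the members lay 0.97 above the median gene on both scales. With it, 7 members were higher and SMC1A was lower at -0.59, while NCAPH2 stood at -0.25 (adjusted p = 0.0570). Changes of NCAPG (1.18), NCAPH (1.39) and NCAPD3 (1.09) stayed above 1 on that scale.

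Averaged over its genes by their brightest probe sets, condensin I stood 1.38 and 1.44 above the control mean (log2) on the 2 mimic arrays, with control arrays at 0.01 and -0.01. Condensin II stood at 0.76 and 0.87, the condensin SMC pair at 0.67 and 0.78, and the cohesin SMC pair at 0.12 and 0.28. The order depends on the probe sets: with all probe sets averaged, the mean change was 0.87 for condensin I, 1.04 for the condensin SMC pair, 0.65 for condensin II and 0.28 for the cohesin SMC pair. These averages take in the 8 member probe sets below the filter, 2 of them of NCAPH and 1 of NCAPG. None of the 8 exceeded the no-target probe sets on any array. By brightest probe sets the changes of single genes overlapped, from 0.98 to 1.73 for condensin I and from 0.09 to 1.43 for condensin II.

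Paralogous subunits were compared on each array as the log2 level of the first minus that of the second, set to 0 in the control mean, which compares changes and not levels. Of 5 pairs, the kleisins differed most by their brightest probe sets, with NCAPH gaining 1.58 and 1.70 on NCAPH2 on the mimic arrays while the control arrays stood at -0.01 and 0.01. With all probe sets averaged this gain was 0.41, the smallest of the 5, and the cohesin pair differed most. That average takes in 2 NCAPH probe sets that read 7.32 to 12.1 and did not exceed the no-target probe sets on any array. SMC1A lost 0.80 and 0.98 on SMC3, with control arrays at 0.13 and -0.13, and its difference was -0.97 with probe sets averaged. NCAPG gained 0.59 and 0.64 on NCAPG2, with control arrays at 0.05 and -0.05. NCAPD2 lost 0.29 and 0.62 on NCAPD3, with control arrays at 0.14 and -0.14. SMC2 lost 0.43 and 0.37 on SMC4, with control arrays at -0.04 and 0.04. The exact permutation test over arrays gave p = 0.333 (two-sided) for each pair, the smallest that 2 arrays against 2 can give, so none can pass.

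The 34 probe sets give the same genes at several places. Of these, 26 passed the filter and were tested among 31752 probe sets, where 21 rose, 2 fell and 3 were not called. The share called over all probe sets tested was 27.2% higher and 24.2% lower. The other 8, 1 of NCAPG, 3 of NCAPG2, 2 of NCAPH and 2 of SMC1A, were below the filter and did not exceed the no-target probe sets on any array.

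**Figure D2:**
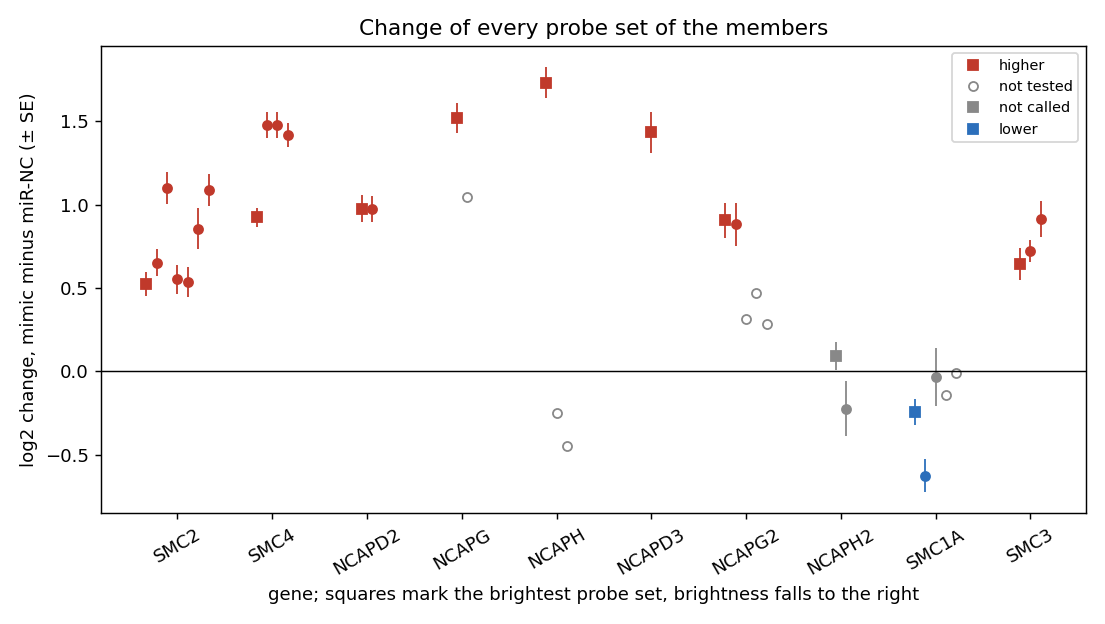
Log2 change (mimic minus miR-NC, bars SE) of each of the 34 probe sets of the 10 genes, coloured by call, with open circles for the 8 that were below the filter and not tested. All tested probe sets of SMC2, SMC3, SMC4 and the condensin I genes lie above 0, and those of SMC4 fall at 0.92 and from 1.42 to 1.48.

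SMC4 was measured by 4 probe sets, all of which rose. The brightest gave the smallest change, 0.92, and the other 3 gave 1.42, 1.48 and 1.48 (log2), so the mean of all probe sets was 1.33. On the mimic arrays the brightest stood at 0.89 and 0.96 above its control mean and the other 3 between 1.40 and 1.56, with no overlap. All 7 probe sets of SMC2 rose, from 0.53 to 1.10, and 3 of them (0.86, 1.09 and 1.10) stood apart from the 4 at 0.53 to 0.65. The mean of all 7 was 0.76. SMC3 rose on all 3 of its probe sets, at 0.64, 0.72 and 0.92. The 2 of NCAPD2 gave 0.98 and 0.97.

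For NCAPH and NCAPG 1 probe set each carried the result. The 2 other NCAPH probe sets read 7.32 to 12.1, under the no-target level, with changes of -0.25 and -0.45, and with them averaged in the log2 change of NCAPH was 0.35 (adjusted p = 0.0205). The other NCAPG probe set read 12.6 and 14.0 against 7.25 and 5.69, also under that level. NCAPG2 rose on both of its tested probe sets (0.91 and 0.88), and the mean over all 5 was 0.57. NCAPD3 had 1 probe set. The other probe set of NCAPH2 read 19.9 and 20.5 against 27.7 and 20.02 and was not called either, at -0.22 ± 0.17. Of the 3 tested SMC1A probe sets 2 fell, the brightest by 0.24 and another by 0.63 (limma adjusted p = 1.65e-04), reading 78.3 and 74.4 with the mimic against 122 and 114. The remaining one was at -0.03.

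Genes that work with these subunits were taken from 4 lists. Among regulators of condensin and the chromosome axis 8 of 10 tested were higher and 1 lower, with a median log2 change of 0.98. Shares over all genes tested were 28.1% higher and 26.9% lower. Topoisomerase TOP2A, which untangles the chromatids condensin compacts, read 2513 and 2793 against 379 and 352. Its change was 2.86 ± 0.06, against 0.81 ± 0.05 for its isoform TOP2B. MKI67, which coats mitotic chromosomes, rose by 1.96, the condensin-phosphorylating kinase CDK1 by 1.90, and the chromokinesin KIF4A, which binds condensin, by 1.65. The mitotic kinases AURKB and PLK1 rose by 0.99 and 0.97. SMCHD1, an unusual SMC protein of the inactive X chromosome, rose by 0.66, though it was at 0.09 and not called without probe sets ending in _s_at or _x_at. AKAP8, a chromatin anchor that recruits condensin, fell by 0.25, a call that 1 of its 3 tested probe sets made and that ended without mimic replicate 1 (adjusted p = 0.0965), and AKAP8L was at 0.05. Averaged over all their probe sets, MKI67 stood at 0.77, CDK1 at 1.23 and KIF4A at 0.95. Of these probe sets, 5 of 6 for MKI67 and 2 of 3 for CDK1 passed the filter.

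Of 5 tested partners of cohesin 3 rose and 1 fell, with a median of 0.31. Shares over all genes tested were 28.1% higher and 26.9% lower. The kleisin RAD21 read 1827 and 1783 against 1024 and 1105 and rose by 0.76 ± 0.05. The exchangeable subunits STAG1 and STAG2 rose by 0.37 and 0.31, and the 3 probe sets of STAG1 ranged up to 1.68. With the poly(A) spikes STAG1 was at 0.03 (adjusted p = 0.844) and STAG2 at -0.04, and without probe sets ending in _s_at or _x_at STAG2 was at 0.07 (adjusted p = 0.417). CTCF, which stops cohesin at loop anchors, was lower by a narrow margin, with a log2 change of -0.22 ± 0.09 (limma adjusted p = 0.0484). This call ended in 6 of its 14 other settings. Meiotic REC8 was at 0.06, near the no-target level.

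Of 13 tested genes that load, release or protect cohesin, 5 rose and 3 fell, with a median of 0.05, beside 28.1% higher and 26.9% lower over all genes tested. Among those that rose, ESCO2, which acetylates SMC3 during replication, read 71.9 and 84.5 with the mimic against 10.8 and 14.1 with the control. Neither control array exceeded the no-target probe sets, so the rise was at least 5.05-fold (limma adjusted p = 2.21e-07). That bound is the mean of the mimic arrays over the mean of the control arrays. For it, each control array took the higher of its own brightest no-target probe set and the gene's value. The shugoshin SGO2 rose by 1.83 and SGO1, which shields centromeric cohesin, by 1.32. SGO1 read 34.6 and 35.4 against 13.0 and 15.2, and 1 of the 2 control arrays was above the no-target level. Sororin (CDCA5), which blocks release by WAPL, rose by 1.09, and separase (ESPL1), which cuts RAD21, by 0.80. Averaged over all their probe sets, ESPL1 stood at 0.27 (not called), CDCA5 at 0.54 and ESCO2 at 1.47 (log2). Of the 2 probe sets of ESPL1 and the 2 of ESCO2, 1 each passed the filter and was tested, as was 1 of 3 for SGO1.

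The loader subunit MAU2 fell by 0.81 ± 0.09 on the log2 scale, from 471 and 569 to 300.14 and 292. All 3 of its probe sets fell, from -0.81 to -0.86. Its partner NIPBL fell by 0.23 by its brightest probe set, but another of its 3 probe sets rose by 0.47. The call of NIPBL ended without mimic replicate 1 (adjusted p = 0.0661), mimic replicate 2 (0.191) or control replicate 1 (0.103). HDAC8, which deacetylates SMC3, fell by 0.64, with 2 of 7 tested probe sets falling, a mean over all of -0.10, and 0.28 without probe sets ending in _s_at or _x_at (not called). ESCO1, the other SMC3 acetyltransferase, read 621 and 613 against 621 and 628 and was not called at -0.02 ± 0.06. The release factors WAPL (0.12), PDS5A (0.04) and PDS5B (0.05) and the helicase DDX11 (-0.26) were not called, though 3 of 5 WAPL probe sets rose and the mean of all DDX11 probe sets was called at -0.49.

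SMC5/6 is another SMC complex, which acts in DNA repair. Of its 8 genes tested 5 rose and 1 fell, with a median of 0.21. Shares over all genes tested were 28.1% higher and 26.9% lower. SMC6, the kleisin NSMCE4A and the MAGE subunit NSMCE3 rose by 0.43, 0.42 and 0.41, SLF1 by 0.25 and the RING subunit NSMCE1 by 0.16. Of the tested probe sets, 1 of 2 rose for SMC6, with the other at -0.06, and 3 of 5 for NSMCE4A. Averaged over all their probe sets, SMC6 stood at 0.18 and NSMCE4A at 0.22, both still called. The SUMO ligase NSMCE2 fell by 0.61 ± 0.05, from 1156 and 1147 to 747 and 758. SMC5 was at 0.04 and not called, though 1 of its 3 probe sets rose by 1.56. SLF2 was at -0.25 and not called, with 1 of 3 tested probe sets rising by 1.36. With the poly(A) spikes none of the 5 risen genes was called higher. SLF1 and NSMCE1 were also not called with a second quantile normalization (limma adjusted p = 0.0747 and 0.131) or with the older poly(A) probe sets (0.27 and 0.50). Without the trend option of limma NSMCE1 was not called (0.0946), nor was SLF1 without probe sets ending in _s_at or _x_at (0.369). The call of SLF1 ended with any 1 of the 4 arrays left out (adjusted p from 0.0540 to 0.162), and that of NSMCE1 without mimic replicate 1 (0.0740) or mimic replicate 2 (0.143).

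**Figure D3:**
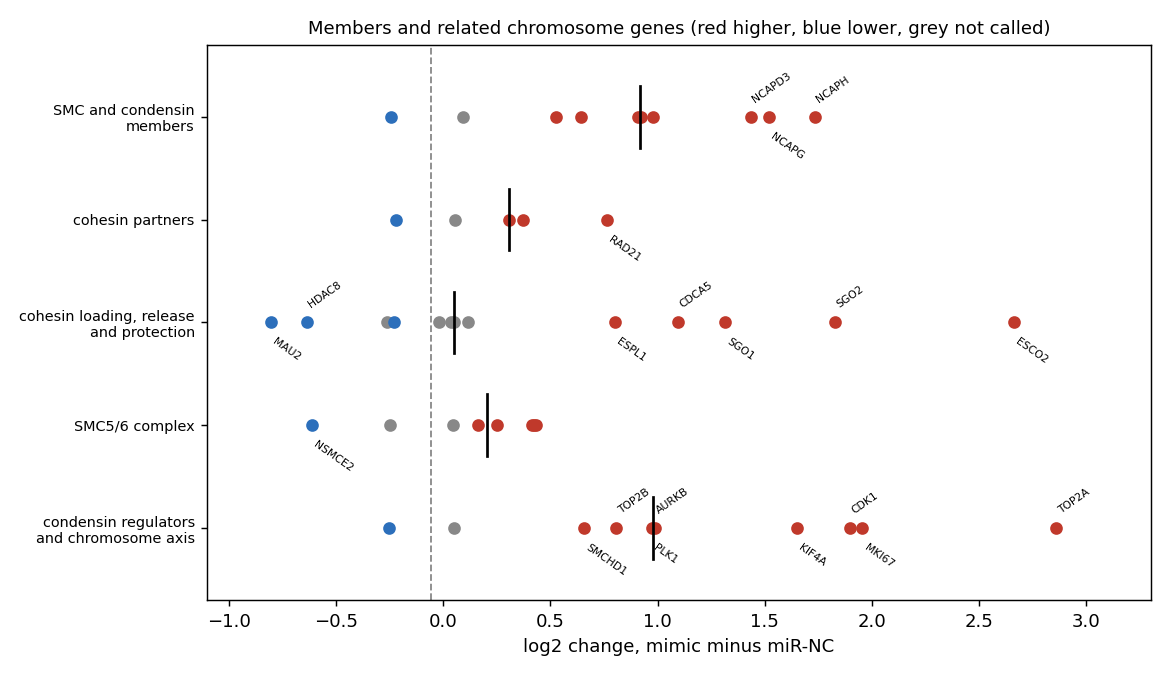
Log2 change (mimic minus miR-NC) of the 10 members and of the tested genes of the 4 related lists, red for higher, blue for lower and grey for not called. Black bars are list medians and the dashed line the median of all genes tested (-0.06); the members and the condensin regulators have medians of 0.92 and 0.98, against 0.05 to 0.31 in the other lists.

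Over the 4 lists 21 of 36 tested genes were higher and 6 lower, beside 28.1% higher and 26.9% lower over all genes tested. Lists were not tested as sets, and their members are not replicates. The settings tried are compared for the members in the plot of changes by setting. Leaving out probe sets ending in _s_at or _x_at moved SMC1A from -0.24 to -0.63.

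**Figure D4:**
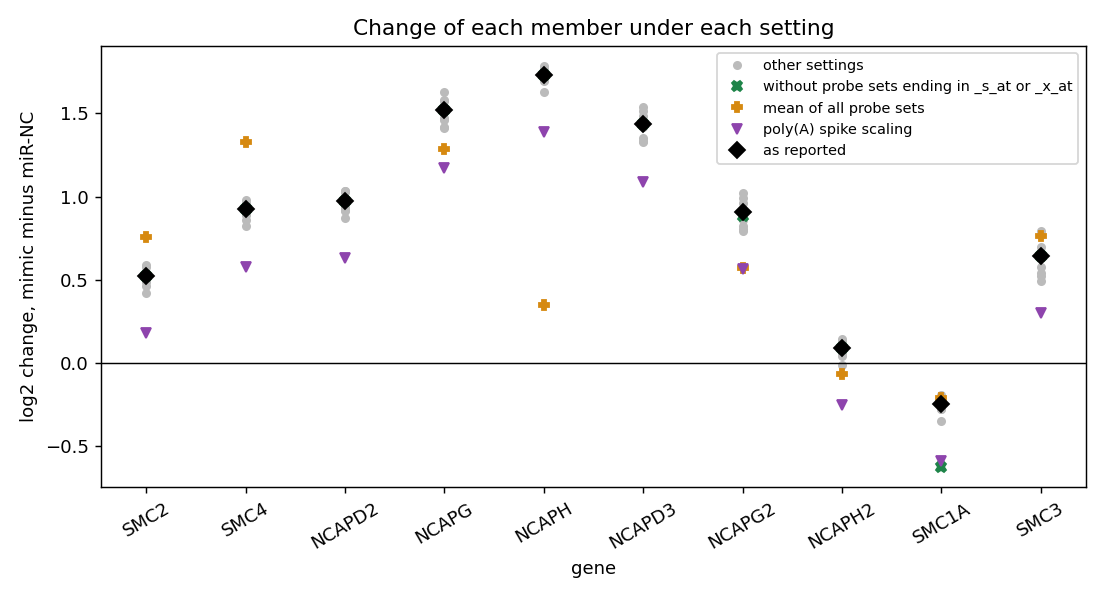
Log2 change (mimic minus miR-NC) of each member as reported (black diamonds) and under each other setting. The poly(A) scaling (purple) lowers every gene by the same amount, and the mean of all probe sets (orange) moves NCAPH from 1.73 to 0.35 and SMC4 from 0.92 to 1.33.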

How the data were processed

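Probe set intensity values of 4 arrays were used as deposited by the authors. The submitters' processing notes name RMA, which corrects background, normalizes between arrays and summarises probes, with no version given. The values run from 2.09 to 17329, so they were read as linear and their log2 was taken. Groups came from the sample titles. Names came from the platform annotation (1 symbol for 44988 of 49395 probe sets), and the GRCh38.p14 gene table changed 0 symbols. Each gene took its brightest probe set. Genes, and separately probe sets, with a mean above the 30th percentile went into limma (version 3.58.1, under R 4.3.3), using lmFit and then eBayes with its trend option, at 2 residual and 8.35 prior degrees of freedom for genes, two-sided, with Benjamini-Hochberg adjustment. Errors are SEs of log2 changes, and the number of arrays limits the precision. The fit was tested on simulated data.

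The members and lists were chosen with earlier results of these data known. By the rule for named genes, all members and all tested genes of the lists are named. Alternatives were a second quantile normalization, spike scalings, other filters, probe sets and spreads, the replicate number as a block, and leaving out each array. Scaling to older poly(A) probe sets or hybridization spikes and leaving out probe sets ending in _s_at or _x_at were chosen after seeing the data. A planned comparison of protein sequences was not run. List genes absent from the annotation with 1 symbol are not reported here. Same-numbered arrays deviated from their group means with a correlation of 0.08 over 14122 genes, so the numbers were not taken as pairs.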

Additional observations from a re-analysis of the deposited data

How the results depend on the processing

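The 8 higher members were called in each setting that tested them, except SMC2 with the poly(A) spikes (7 members higher). Without probe sets ending in _s_at, _x_at or _a_at, SMC3 and NCAPH2 alone were still tested, and 1 member was higher and 0 lower. SMC1A was the 1 lower member, and 0 were lower when probe sets were averaged or the hybridization spikes used. Leaving out 1 array gave 0 to 1 lower members, always 8 higher, 1 to 3 lower probe sets and 21 higher ones. With the poly(A) spikes 18 member probe sets were higher and 4 lower, and with the hybridization spikes 1 was lower. With the replicate number as a block 8 members were higher and 1 lower, and 21 probe sets were higher and 2 lower; it moved no count by over 1.5 times.

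Of related genes, 13 were lower with the poly(A) spikes, 6 higher and 2 lower without the 3 suffixes, 3 lower without _s_at or _x_at, and 3 to 6 lower with 1 array left out. Over all genes, the poly(A) spikes gave 1613 higher and 8200 lower, leaving out the 3 suffixes 1133 and 1170, and leaving out 1 array 2509 to 4041 lower. Among related genes called on the deposited scale or in the other setting, directions turned with the poly(A) spikes for STAG2 (-0.039), PDS5A (-0.31), PDS5B (-0.29), SMC5 (-0.30), NSMCE1 (-0.18), SLF1 (-0.10) and AKAP8L (-0.30). With the same condition they turned with the mean of all probe sets for NIPBL (0.16) and SLF2 (0.40), without the 3 suffixes for NIPBL (0.23) and AKAP8 (0.044), and without _s_at or _x_at for HDAC8 (0.28) and AKAP8 (0.044). The cause was not tested.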

Other observations

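Cohesin subunits of meiosis were near background in both groups. SMC1B read 4.21 to 5.77 over the 4 arrays, RAD21L1 2.74 to 3.49 and STAG3 7.77 to 10.1, none above the no-target probe sets on any array. EID3, a subunit related to NSMCE4A, read 3.22 to 4.66. These 4 genes were below the filter and were not tested.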
